A study of Mus musculus and Homo sapiens with 54 samples.

Results

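The histone variant H2A.Z was mapped by ChIP-seq in untreated HCT116 cells, and the regions described here are all of its called peaks on chromosomes 1 to 22 and X. HCT116 is an established human colon carcinoma line. The list held 64034 such peaks, which is 28.9% of the 221603 regions in the 7 peak lists of the study. A further 14 peaks lay on 9 alternate or patch scaffolds and were set aside. The study followed how histones H2A and H2B and their marks are passed on at DNA replication, with 54 libraries from mouse embryonic stem cells and HCT116 cells. The H2A.Z libraries were 2 replicates of wildtype HCT116 cells, with no drug treatment and with formaldehyde crosslinking. Their titles carry the label of the study's nascent time point, at which cells had been pulsed with EdU, a tag of newly replicated DNA. The libraries used here are of total chromatin. The only other region set used below is the list of H2BK120ub1, histone H2B ubiquitinated at lysine 120, in the same line. The study's HCT116 libraries of this mark came from untreated cells and from cells treated with triptolide, an inhibitor of transcription initiation. The sources used here do not name the libraries behind that list, so a part from treated cells cannot be told apart. Each peak was assigned to the 19970 protein-coding genes of GENCODE. A peak was at a promoter if it met the gene's start (TSS) or the 1 kb on either side, in a gene body if it met a gene elsewhere, and otherwise intergenic.

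H2A.Z replaces the canonical histone H2A in a fraction of nucleosomes. The SRCAP and p400 complexes exchange it into chromatin, INO80 and ANP32E are linked with its removal, and it is known for flanking the nucleosome-depleted region of active and poised promoters and for marking enhancers. H2BK120ub1 is laid down by RNF20 and RNF40 over the bodies of genes as RNA polymerase II transcribes them.

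The sequences just upstream of 5 gene starts illustrate promoters rich in CpG dinucleotides and a promoter poor in them. They were chosen as examples, and many genes go the other way. In all, 3380 genes with a CpG-rich promoter (defined below) had no promoter peak. Of 20 liver marker genes, none with a CpG-rich promoter, 7 had a promoter peak. The genes are both genes that encode H2A.Z (H2AZ1 and H2AZ2), a WNT target and an intestinal transcription factor with a peak (AXIN2 and CDX2), and a liver fibrinogen chain without a peak (FGA). Each sequence holds the 250 bases before the start, 5′ to 3′ on the gene's strand in hg38, with CG in capitals.
H2AZ1: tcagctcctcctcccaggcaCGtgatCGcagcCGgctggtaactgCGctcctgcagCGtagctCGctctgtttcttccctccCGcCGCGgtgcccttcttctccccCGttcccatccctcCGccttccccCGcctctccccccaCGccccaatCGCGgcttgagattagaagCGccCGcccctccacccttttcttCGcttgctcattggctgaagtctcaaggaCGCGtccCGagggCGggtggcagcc
H2AZ2: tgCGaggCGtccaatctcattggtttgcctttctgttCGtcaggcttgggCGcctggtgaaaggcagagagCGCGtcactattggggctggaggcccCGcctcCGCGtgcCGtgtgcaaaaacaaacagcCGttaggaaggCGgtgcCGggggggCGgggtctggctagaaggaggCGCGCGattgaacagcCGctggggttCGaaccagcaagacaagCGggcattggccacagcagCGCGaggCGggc
AXIN2: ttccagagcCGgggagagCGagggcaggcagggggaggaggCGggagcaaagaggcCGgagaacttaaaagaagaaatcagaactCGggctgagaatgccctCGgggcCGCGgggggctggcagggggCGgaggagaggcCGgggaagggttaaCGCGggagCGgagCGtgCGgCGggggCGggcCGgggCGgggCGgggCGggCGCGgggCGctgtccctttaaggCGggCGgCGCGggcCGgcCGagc
CDX2: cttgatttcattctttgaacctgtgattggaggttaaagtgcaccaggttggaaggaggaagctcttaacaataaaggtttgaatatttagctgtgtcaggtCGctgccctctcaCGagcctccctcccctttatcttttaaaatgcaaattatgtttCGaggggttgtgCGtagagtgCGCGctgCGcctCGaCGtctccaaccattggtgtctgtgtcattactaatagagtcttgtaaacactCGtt
FGA: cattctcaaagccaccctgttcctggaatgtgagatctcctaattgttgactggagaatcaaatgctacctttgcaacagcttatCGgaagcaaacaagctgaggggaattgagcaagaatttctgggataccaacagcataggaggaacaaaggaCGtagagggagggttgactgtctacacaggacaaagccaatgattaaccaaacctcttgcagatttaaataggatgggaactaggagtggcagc
The H2AZ1 stretch (chr4:99950356-99950605, minus strand) held 22 CG, and 127 of its bases lay under a peak at chr4:99950479-99951274, which ended 124 bp before the start. The H2AZ2 stretch (chr7:44848088-44848337, minus strand) held 23 CG and lay wholly under a 1255 bp peak that also covered the start. AXIN2, an inhibitor and target of WNT signalling, had 30 CG (chr17:65561649-65561898, minus strand) under a peak of 3157 bp. CDX2, the intestinal homeobox factor, had 10 CG (chr13:27969316-27969565, minus strand) under a peak of 3103 bp. FGA had 2 CG (chr4:154590743-154590992, minus strand), and its nearest peak was 21280 bp away, at the promoter of FGG, another liver marker gene. The 4 stretches from genes with a peak thus held 10 to 30 CG.

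H2A.Z peaks covered 85.0 Mb, which is 2.92% of the sequenced bases of these chromosomes. Their widths ran from 252 to 12242 bp with a median of 1093 bp (quartiles 705 and 1670), and 407 peaks were 5 kb or wider. Most peaks were away from promoters: 8871 (13.9%) were at a promoter, 16071 (25.1%) in a gene body and 39092 (61.0%) intergenic. Promoter windows are a small target, however, and the density of peaks was 242 per Mb there, against 12.6 per Mb in gene bodies and 24.5 per Mb between genes. Peaks covered 31.8% of all promoter window bases, 1.67% of gene body bases and 3.25% of intergenic bases. Promoter peaks were also wider, with a median of 1514 bp against 1024 bp in gene bodies and 1026 bp between genes, although the quartile ranges overlapped. The ratio of observed to expected CpG had a median of 0.707 in promoter peaks, 0.215 in gene body peaks and 0.188 in intergenic peaks, beside 0.24 over the genome. The list holds no score and merges the replicates, so these are complete counts over 1 list with no replicate error and no test.

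**Figure D1:**
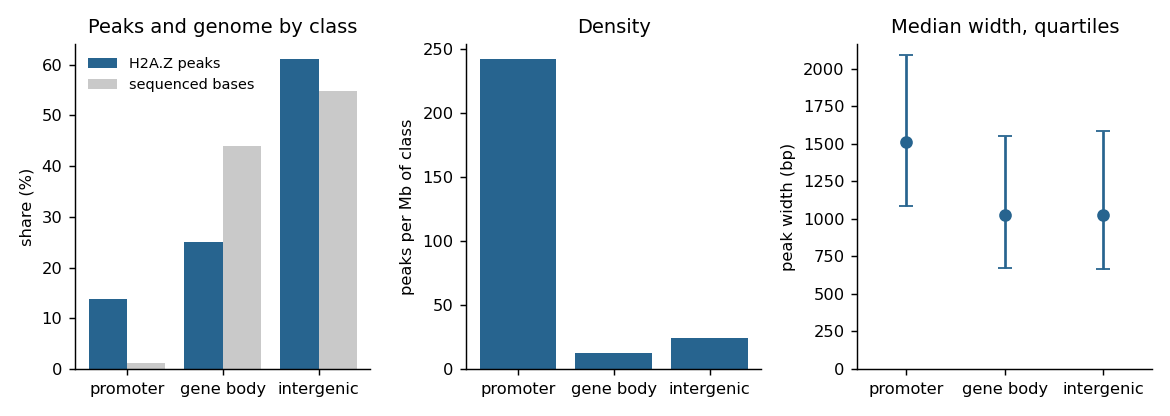
Left, the share (%) of H2A.Z peaks and of sequenced bases in promoter windows, gene bodies and intergenic sequence. Middle, peaks per Mb of each class. Right, median peak width in bp, with the lower and upper quartiles as bars. Promoters held 13.9% of peaks on 1.26% of bases, and promoter peaks had the highest median width.

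Within genes, 10987 of the gene body peaks (68.4%) lay wholly in introns and 5084 (31.6%) met an exon. Of the gene body peaks, 18.3% were within 1 kb of the start of another transcript of a protein-coding gene. Along genes of at least 20 kb divided into 10 equal parts, each part held between 9.05% and 11.3% of the body peaks. A gene's own promoter peaks are not among its body peaks, so this spread leaves out H2A.Z at the start. Intergenic peaks had a median distance of 57.2 kb to the nearest start of a protein-coding gene. Of them 13840 (35.4%) were over 100 kb from every such start, and 4.49% were within 1 kb of the start of a long non-coding RNA gene.

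Of the 19970 protein-coding genes, 10061 (50.4%) carried a peak at the promoter, 2839 (14.2%) had a peak in the body only and 7070 (35.4%) had none. A promoter nearly always held 1 peak: 9939 genes had 1, 122 (0.611%) had 2, and none had 3. The start itself lay inside a peak in 8627 genes, which is 43.2% of all genes and 85.7% of those with a promoter peak. In the other genes with a promoter peak the peak was only upstream of the start in 654, only downstream in 720 and on both sides in 60. The 654 are 6.50% of all genes with a promoter peak. Among the genes with a promoter peak, the peaks covered a median of 1333 bp of the window (quartiles 979 and 1671). Coverage was highest just inside the gene, at 124 bp downstream of the start, where 86.8% of these genes were covered. It was down to 10.8% at 2 kb upstream and 7.34% at 2 kb downstream. In the 122 genes with 2 peaks, coverage had its minimum, 36.1%, at position -443 bp from the start. The median gap between their peaks was 661.5 bp. A dip within the window follows from the choice of genes, since 2 separate peaks must both meet it. Since the study merged peaks within 500 bp, a narrower gap at the start cannot be seen in the list.

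Neighbouring genes often shared a peak. In 856 pairs of genes on opposite strands with starts within 1 kb of each other, both windows had a peak in 575 pairs (67.2%) and neither in 276. The windows of such a pair overlap, so that 1 peak serves both follows from the rule of assignment. Of the promoter peaks, 1159 (13.1%) served the windows of 2 genes and 74 those of 3 or more, so genes with a peak are not independent of each other.

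Some genes have a promoter sequence that occurs elsewhere in the reference, and this bears directly on which genes appear to lack H2A.Z. The authors kept reads that map uniquely, and the list holds peaks on alternate scaffolds of hg38, which repeat parts of the main chromosomes. Each promoter window was therefore read as overlapping words of 32 letters and compared with the genome on both strands. In 833 genes at least 50% of these words also occurred on an alternate scaffold, and 3 of those genes (0.360%) had a promoter peak (PHF10, FOCAD and MEIOB). In a further 648 genes at least 50% of the words occurred more than once on the main sequences, and 5 of them (0.772%) had a promoter peak. In the remaining 18489 genes, called genes without promoter copies below, 10053 (54.4%) had a promoter peak and 5647 (30.5%) had no peak. H2BK120ub1 had the same gap: it was present in 4.08% of the genes with an alternate copy, 6.33% of those repeated on the main sequences and 52.1% of the others. Nearly every gene with such a copy is therefore listed without H2A.Z and without H2BK120ub1 alike, and for these genes the absence of a peak cannot be told apart from the absence of uniquely mapping reads.

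The CpG content of the promoter window went closely with H2A.Z. The share of genes with a promoter peak was 12.02% where the CpG ratio was under 0.1, 26.7% between 0.3 and 0.4, 55.0% between 0.5 and 0.6 and 68.7% between 0.7 and 0.8. It levelled off at 71.3% between 0.9 and 1. With a ratio of 0.6 or more, 7032 of 10412 genes had a peak (67.5%), against 802 of 4526 (17.7%) under 0.3. Without promoter copies the first share was 70.6% and the second 20.1%. Genes with a peak in the body but not at the promoter had poor promoters, with a median ratio of 0.329 against 0.686 for genes with a promoter peak and 0.490 for genes with no peak. Gene length went with the peak too: the share was 8.72% in genes under 1 kb, 37.8% from 3 to 10 kb, 63.4% from 100 to 300 kb, and again lower, 32.4%, in the 71 genes over 1 Mb.

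Short motifs in the 250 bases before the start and the 49 after it, read on both strands, differed in the same direction for some motifs. The TATA-like TATAAA occurred in 10.8% of all promoters, in 6.23% of those with a peak and in 15.5% of those without. The GC box GGGCGG occurred in 52.4% of all promoters, in 64.9% with a peak and in 39.8% without. The palindromic NRF1 motif, rarer and with CpG in it, occurred in 1.49% of all, 2.10% with a peak and 0.868% without. CCAAT, which contains no CpG, occurred in 35.9% of all, 34.5% with a peak and 37.3% without. GGGCGG and the NRF1 motif contain CG and so are not independent of CpG content, and these matches are letters in a window, not binding sites.

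**Figure D2:**
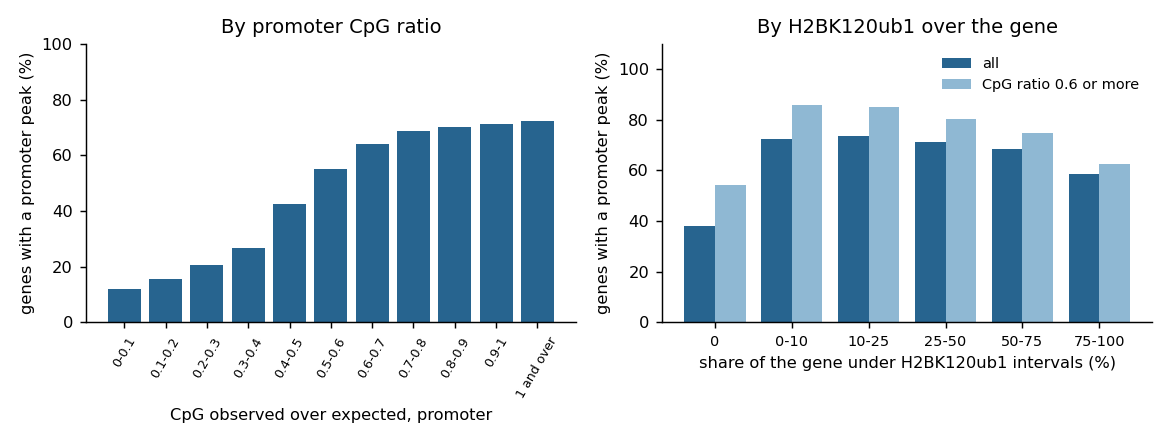
Left, the share of genes with a promoter H2A.Z peak (%) by the observed over expected CpG ratio of the promoter window, rising from 12.02% to 72.3%. Right, the same share among the 18489 genes without promoter copies by the percentage of the gene under H2BK120ub1 intervals, for all of them and for those with a CpG ratio of 0.6 or more. Over all of them the share is highest at 10 to 25% (73.7%), and with CpG-rich promoters it falls from 86.0% at up to 10% to 62.4% at 75 to 100%.

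Over all genes, H2A.Z at the promoter went with H2BK120ub1 over the gene, but not in proportion and not where the CpG ratio was under 0.3. An H2BK120ub1 interval was present in 6696 of the 10061 genes with a promoter peak (66.6%), in 30.3% of genes with a peak in the body only, in 30.5% of genes with no peak, and in 48.6% of all genes. Among genes without promoter copies, 38.0% of those without H2BK120ub1 had a promoter peak. The share was 72.5% where the mark covered up to 10% of the gene, 73.7% from 10 to 25%, 71.1% from 25 to 50%, 68.6% from 50 to 75% and 58.8% from 75 to 100%. With CpG-rich promoters alone (0.6 or more) the decline was from 86.0% at up to 10% coverage to 62.4% at 75 to 100%. With a CpG ratio under 0.3 the marks did not go together. H2BK120ub1 was present in 20.2% of the 802 such genes with a promoter peak and 19.8% of the 3197 without. The only other threshold compared was 0.6, over all genes and not just those without promoter copies. Under 0.6, H2BK120ub1 was present in 44.6% of 3029 genes with a promoter peak and 22.4% of 6529 without. Gene length fell along the same bins, from a median of 53572 bp to 19784 bp over all of these genes, and its part in the decline was not tested. The 2155 genes with H2BK120ub1 and no H2A.Z peak anywhere had a median of 49.8% of their length under the mark. It was 26.7% for genes with H2BK120ub1 and a promoter peak. Genes with no peak were shorter, at a median of 11948 bp against 37683 bp for all genes with a promoter peak. The part of length in this difference was not tested.

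The shape of H2A.Z at the start changed along the same scale. Median peak width was 1584 bp where H2BK120ub1 covered up to 10% of the gene and 1212 bp where it covered 75 to 100%. The peak was only upstream of the start in 3.53% of the first group and in 16.3% of the second. Where coverage was up to 10%, H2A.Z was most frequent at 200 bp downstream of the start, over 91.0% of the genes with a promoter peak, and still covered 81.0% at 500 bp downstream. Where coverage was 75 to 100% it was most frequent at 300 bp upstream, over 86.0% of genes, and covered 47.8% at 500 bp downstream. An H2BK120ub1 interval was met by 19.9% of promoter peaks, 1.54% of gene body peaks and 0.0793% of intergenic peaks. The share of each class of sequence under H2BK120ub1 is not given here, so whether these overlaps are low for their class cannot be told.

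**Figure D3:**
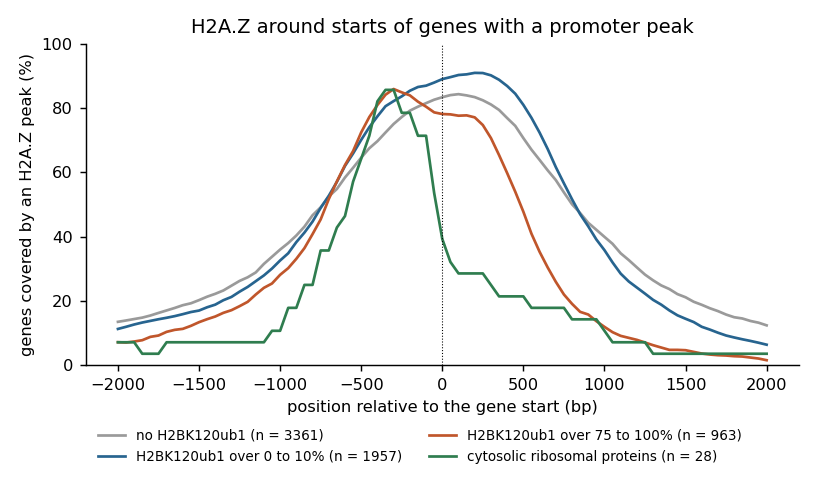
The share of genes covered by an H2A.Z peak (%) at each position from 2 kb upstream to 2 kb downstream of the start, in steps of 50 bp, for genes that have a promoter peak. Lines are genes without H2BK120ub1 (n = 3361), with up to 10% of the gene under it (n = 1957), with 75 to 100% (n = 963) and cytosolic ribosomal protein genes (n = 28). The 75 to 100% and ribosomal protein lines peak upstream of the start and fall earlier than the others, with 39.3% of the ribosomal protein genes covered at the start itself.

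Genes of the translation machinery differed among themselves. Cytosolic ribosomal protein genes, which encode the subunits of the 80S ribosome, had a promoter peak in 28 of 84 cases (33.3%), against 50.4% of all genes, although 90.5% of them carried H2BK120ub1 and 65 had a CpG-rich promoter. Of the 28 peaks 16 were only upstream of the start and 11 covered it, and the median width was 620.5 bp. RPS7 had a 307 bp peak and RPL29 a 379 bp peak, both upstream only, while RPL7 had the widest, 2794 bp, over its start. Mitochondrial ribosomal protein genes had a promoter peak in 55 of 78 cases (70.5%), with the start covered in 51 of the 55 and a median width of 1029 bp. Their share with H2BK120ub1 was 88.5%, much like that of the cytosolic set. Without promoter copies the shares were 28 of 79 and 55 of 74, and the sets differed by as much as before. Gene length was not matched between these sets or against all genes, and its part in the differences was not tested. Over all genes the share with a promoter peak was 25.1% from 1000 to 3000 bp and 37.8% from 3000 to 10000 bp. It was 60.1% from 30000 to 100000 bp.

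Most other housekeeping lists lay nearer the 54.4% of all genes without promoter copies, and all counts in this paragraph are over such genes. Proteasome subunits had a promoter peak in 23 of 45, complex I subunits in 22 of 36, translation initiation factors in 28 of 47, Mediator subunits in 18 of 28 and aminoacyl-tRNA synthetases in 20 of 31. RNA polymerase II subunits had it in 4 of 11: POLR2D, POLR2F, POLR2H and POLR2I. The replication fork and histone chaperone genes had it in 17 of 24, among them MCM3 of the replicative helicase with 3501 bp, PCNA, the sliding clamp, with 2418 bp, and both large CAF-1 subunits, CHAF1A with 433 bp and CHAF1B with 1391 bp. MCM2 and MCM7 of the same helicase had no peak, although H2BK120ub1 covered 92.8% and 94.3% of these genes. The PCNA peak was at the outermost start, and the start of the annotation's representative transcript, 6668 bp away, had none. DNA repair genes had a promoter peak in 14 of 20, among them the damage kinase gene ATR with 879 bp and BRCA2 of homologous recombination with 1370 bp. Replication-dependent histone genes stood apart with 4 of 61: H1-6, H3C6, H4C7 and H4C8. Of the 61, 4.92% carried H2BK120ub1 in spite of 65 CpG-rich promoters among all 69. Gene length was not matched in this comparison, and 8.72% of all genes under 1 kb had a promoter peak.

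Genes of the H2A.Z system itself mostly carried H2A.Z. A promoter peak was present at 20 of 24 genes for the variant, its chaperones and the exchange complexes, against 50.4% of all genes. H2BK120ub1 was present in all 24, and 19 had a CpG-rich promoter. Among all genes with H2BK120ub1 the share with a promoter peak was higher too, at 69.0%. The catalytic subunits EP400, INO80 and SRCAP had peaks of 1117, 968 and 495 bp, and the SRCAP peak was upstream of the start only. ANP32E, a chaperone that removes H2A.Z, had the widest, 3794 bp, and BRD8 and TRRAP of the TIP60 complex had 1516 and 1350 bp. The 4 genes without a promoter peak were RUVBL1 and RUVBL2, the ATPases shared by these complexes, VPS72, an H2A.Z chaperone, and ING3. RUVBL1 had a peak at the start of its canonical transcript, the annotation's representative one, which is not the outermost start used here. SRCAP had no peak at its canonical start, 962 bp from the outermost one. Of the Polycomb subunits, 25 of 34 had a promoter peak, among them EZH2, the H3K27 methyltransferase (1074 bp), RNF2, the H2A ubiquitin ligase (1685 bp), and BMI1 (2101 bp). Of the 9 without, 3 had an alternate scaffold copy of their promoter (PHF1, RING1 and PCGF2) and 1, SUZ12, a promoter repeated on the main sequences. Of the genes for H2B ubiquitination, 7 of 14 had a peak, including RNF20 (1179 bp) and RNF40 (660 bp), while the deubiquitinase gene USP22 had none.

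WNT targets known from the intestine had a promoter peak in 16 of 20 cases, against 50.4% of all genes. A CpG-rich promoter was present in 17 of the 20, and 67.5% of all genes with such a promoter had a peak. Of the core pathway genes 12 of 20 had a promoter peak, near the share of all genes. A CpG-rich promoter was present in 15 of these 20. Wide peaks covered the starts of LGR5, the crypt stem cell receptor (3796 bp, with 11 further peaks in the gene), NOTUM, a secreted WNT inhibitor (3299 bp), and AXIN2 (3157 bp), none of which had an H2BK120ub1 interval. MYC and CD44 had narrower peaks of 1219 and 585 bp and H2BK120ub1 over 76.2% and 90.9% of the gene, and CCND1 had a 785 bp peak upstream only with 94.7%. Among the core genes, CTNNB1, the WNT effector beta-catenin, had an 809 bp peak downstream of the outermost start, APC, its destruction complex scaffold, had 2857 bp, and GSK3B, AXIN1 and LRP6 had none. LEF1 had no promoter peak and 8 peaks in the body.

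Markers of colon epithelium carried H2A.Z at the promoter about as often as markers of other tissues, so the list alone does not show the colon origin given by the labels. It was present at 7 of 25, among them CDX2, CDH1, CDH17, CEACAM5, CA2 and GUCA2A. The shares elsewhere were 4 of 20 for blood, 7 of 20 for liver, 7 of 20 for neurons, 4 of 20 for muscle and 9 of 20 for fibroblast and endothelial cells. H2BK120ub1 was present in 10 of 25 colon markers, none of 20 blood markers and 2 of 20 in each of the other 4 lists, against 48.6% of all genes, so the colon list lay below the share of all genes as well. Keratins of simple epithelium differed among themselves. KRT7 had a promoter peak of 4234 bp and no H2BK120ub1, whereas KRT18 had its nearest H2A.Z peak 15219 bp away and 82.6% of its length under H2BK120ub1, and KRT19 had none at the promoter and 63.4%. HNF4A, LGALS4 and TFF3 had neither a promoter peak nor H2BK120ub1. Wide peaks did occur at markers of other tissues without H2BK120ub1, such as MYL2 of cardiac muscle (5034 bp), VIM of mesenchyme (4688 bp) and MAP2 of neurons (4310 bp). The choice of start matters for these lists, since EPCAM had a peak at its canonical start, 24153 bp from the outermost one. At the canonical start a peak was present in 8 of 25 colon markers, against 51.8% of all genes. With any annotated start, 11 of 25 colon markers, 8 of 20 blood markers and 13 of 20 fibroblast and endothelial markers had a peak, against 57.1% of all genes.

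Developmental regulators had wide peaks but differed between families. HOX genes had a promoter peak in 27 of 39 cases (69.2%), against 50.4% of all genes, with a median width of 1986 bp. H2BK120ub1 was present in 12 of the 39 (30.8%), against 48.6% of all genes. Forkhead genes had 28 of 51 and a median of 2181 bp, SOX genes 7 of 19 and 2432 bp, and T-box genes 7 of 17 and 1888 bp. The forkhead share, 54.9%, was near that of all genes. The PAX genes with a peak were PAX6 and PAX9 of 9, and the GATA gene with one was GATA6 of 6 (3992 bp), an endodermal factor. SOX9, the intestinal progenitor factor, had 2942 bp, and SOX2, a pluripotency factor, had 3403 bp without H2BK120ub1. CDK inhibitor genes had a peak at 4 of 7 (57.1%), also near the share of all genes, with 3089 bp at CDKN2A, 2690 bp at CDKN1A, 1292 bp at CDKN2C and 1285 bp at CDKN2D. CDKN2A had no peak at its canonical start, 20444 bp from the outermost one. CDKN1B had a peak at its canonical start only, and CDKN1C has an alternate scaffold copy. Zinc finger ZNF genes were close to the share of all genes, with 252 of 508 (49.6%).

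Several families that lie in clusters and are used in few tissues had shares far below the 50.4% of all genes. Gene length was not matched here either, and shares were lower in short genes (8.72% under 1 kb). Olfactory receptor genes had a promoter peak at 13 of 415, keratin-associated proteins at 5 of 94, late cornified envelope and SPRR genes at 1 of 30 (LCE1E), type I interferons at 1 of 17 (IFNB1) and bitter taste receptors at 1 of 24 (TAS2R40). The MAGE genes (26) and the GAGE, SSX and CT45 genes (30), antigens of the germline and of tumours, had none, and all of them lie on chromosome X. Clustered protocadherins had it at 3 of 53, PCDHAC1, PCDHAC2 and PCDHGA10, although their median CpG ratio was 0.594. Keratins had it at 7 of 55, with 4234 bp at KRT7 and 2967 bp at KRT5. Promoter copies were common in some of these families, with 51 of 415 olfactory receptors, 14 of 24 bitter taste receptors and 33 of 94 keratin-associated proteins having an alternate scaffold copy. Over members without copies the shares remained low, 13 of 346 and 5 of 60 for the first and the last of these. Other families of this kind were higher: over members without copies, chemokine ligands had a promoter peak at 13 of 31 (41.9%), cytochrome P450 genes at 18 of 52 (34.6%) and beta-defensins at 6 of 21 (28.6%), against 54.4% of all such genes.

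Genes that lack both marks were often neighbours. Stretches over 300 kb that hold no interval of either HCT116 list contained 2231 genes, and 21 of these stretches, chosen after their values were seen, contained 20 genes or more. These 21 held 854 genes, of which 480 had an alternate scaffold copy of the promoter, 65 a promoter repeated on the main sequences and 309 neither. The stretch with the most genes was the major histocompatibility complex on chr6:28490691-33481133, from GPX6 to ZBTB9, with 183 genes, 47 of them CpG-rich. Of these 183, 181 had an alternate scaffold copy. The same was true of all 54 genes on chr17:35764961-38847985 (TAF15 to C17orf98) and all 41 on chr19:54024422-55087371, which holds the LILR and KIR receptor genes. Other stretches were not repeated in this way: of 71 genes on chr11:48126502-57236768, mostly olfactory receptors, 55 had neither kind of copy, and the same held for all 36 genes on chr21:29354795-31086419, mostly keratin-associated proteins. On chr14:23695912-24390481, 36 of 37 genes had neither kind of copy, among them PSME1 and NEDD8, which are used in most cells, and on chr17:7242438-7548230 all 28 had neither, POLR2A among them. Patch scaffolds, whose names occur in the list, were not in the reference used here, so copies on them were not tested.

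Chromosome X stood apart from the autosomes. It had 602 peaks, 3.89 per Mb, against a range of 12.6 per Mb on chromosome 21 to 31.1 per Mb on chromosome 17. Of its 859 genes 193 (22.5%) had a promoter peak, and the next lowest share was 40.9% on chromosome 21 and the highest 61.3% on chromosome 2. Among genes without promoter copies the share was 26.4% on X and 55.5% on the autosomes. H2BK120ub1 was lower on X as well, in 33.7% of such genes against 52.9%. Within the genes that carried H2BK120ub1, 83 of 245 on X (33.9%) and 70.4% on the autosomes had a promoter peak, so the gap in H2A.Z remained among genes with the other mark. The median promoter peak width was 1240 bp on X and 1508 bp on the autosomes. The list holds no read counts and the copy number of X in the line was not measured here, so its part in the gap was not tested.

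The extremes of the list show where H2A.Z was broadest and where it was missing. The widest promoter peak, 8892 bp at chr10:114173551-114182442, covered the starts of CCDC186, a vesicle protein gene, and TDRD1, a germline Tudor domain gene. The next were at HKDC1, a hexokinase domain gene (8503 bp), ARID5B, a chromatin factor gene (8461 bp), IGFBP5, an insulin-like growth factor binding protein gene (8395 bp), and NR2F2, a nuclear receptor gene (8348 bp). These 5 covered their starts. The widest peaks of all were intergenic, led by 12242 bp at chr4:11479678-11491919 and 12084 bp at chr8:125503292-125515375. Of the 6 widest intergenic peaks 4 were on chromosome 8, and the densest window of 1 Mb, with 130 peaks, was chr8:127000001-128000000, which holds MYC and POU5F1B. Among the genes with the most peaks in the body were RUNX1, a haematopoietic factor gene, with 67, DLGAP1 with 66, AFF3 with 48, ALDH1A2, which makes retinoic acid, with 44, and LAMA2 with 41. RUNX1, DLGAP1, ALDH1A2 and LAMA2 had no peak at the outermost start. The longest genes without any peak were RBFOX1 (2473539 bp), PTPRD, DMD, CSMD1 and PCDH15, most of them genes of neurons or muscle, and none of the 5 had an H2BK120ub1 interval.

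The genes with the most promoter peaks were the 122 with 2. The start lay inside a peak in 62 of them and between the peaks in 60. At CAMTA1, a transcription factor gene, the peaks flanked the start and covered 991 bp of the window, and the nearest edge was 65 bp from the start. At PHC2, a Polycomb subunit gene, they covered 1255 bp with the nearest edge 194 bp away. At RAD54L, a recombination gene, they covered 1125 bp with the nearest edge 277 bp away. The promoters with 2 peaks had a median CpG ratio of 0.5998, against 0.687 for those with 1, and 63 of the 122 (51.6%) carried H2BK120ub1. This count depends most on the rule of assignment: with windows of 500 bp and of 2 kb it was 16 and 664.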

How the data were processed

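ChIP-seq peaks of H2A.Z from 2 replicates of untreated wildtype HCT116 cells were used as deposited. Per the study's methods and the submitters' processing notes, the authors trimmed reads with Trim Galore 0.0.6, aligned them with Bowtie2 2.4.2, kept unique alignments (SAMtools 1.12) and removed duplicates (Picard 2.26.10). They called broad peaks per replicate against pooled inputs with MACS2 2.2.6, merged peaks within 500 bp, required a peak to recur across replicates and dropped blacklisted sequence. The deposited lists hold positions in bp on hg38 in 3 columns, with no score or read count, so the depth behind a peak is unknown and replicate error cannot be given. No column of values per sample was left unused (0).

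Peaks were assigned with Python 3.11.15 and numpy 2.4.6 to 19970 protein-coding genes of GENCODE release 44 by an overlap of at least 1 bp with the outermost start ±1 kb, then with the gene. The CpG ratio is observed over expected CpG in the promoter window. The assignment was tested on simulated data, where 8 of 8 planted counts were recovered. The regions and gene lists were chosen with earlier results of these data known, so no test was made, and counts are read against the share over all genes. Genes named were the members of the lists and those at the extremes (most peaks, widest peaks, longest genes without a peak), and other genes were chosen after their values were seen. Some genes and sequences that the rule covers are not reported here. Alternatives changed the window, the start, the overlap, the peak width, the chromosomes and the genes counted.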

Additional observations from a re-analysis of the deposited data

Results flagged for a closer look

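H2A.Z peaks also occurred on sequence that no comparison above uses. The list held 14 peaks on 9 scaffolds outside chromosomes 1 to 22 and X, with widths from 441 to 1596 bp. They were noted because they lie outside the chromosomes analysed, and no control list was available to set beside them.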

How the results depend on the processing

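Of 92 values of 10 results under other settings, 83 were within 1.5 times the value reported and 9 were not. Some of the 83 could not differ, since the count of starts inside a peak, 8627, does not depend on the window or the overlap. The number of genes with 2 or more promoter peaks, 122 as reported, was 16 with windows of 500 bp, 664 with 2 kb, 1614 with any annotated start, 23 by peak midpoint, 32 with peaks of at least 1 kb and 73 with an overlap of at least 200 bp. Genes with a peak in the body only fell from 2839 to 1493 with any annotated start. With peaks of at least 1 kb, gene body peaks numbered 8288 and intergenic peaks 20186. The share of genes with a promoter peak ran from 40.7% (peaks of at least 1 kb) to 57.1% (any annotated start), and the share without any peak from 30.5% (genes without promoter copies) to 46.9% (peaks of at least 1 kb). The canonical start and the genes without promoter copies were settings chosen after seeing the data. The midpoint gives no value for starts inside a peak. No paired analysis was possible because the list merges both replicates and no result comes from a test, and for the same reason no replicate could be left out.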
